A study of Mus musculus with 16 samples.

Results

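Whole lung RNA was compared between 4 arrays labelled BALB-RAG_OVA and 4 labelled BALB/c_OVA, which are 8 of the 16 arrays of a mouse asthma series. The arrays were taken by their titles, which give the line, the exposure and a replicate number. BALB/c is an inbred mouse strain, and BALB-RAG is a line named for a Rag gene, although the labels do not say which Rag gene is affected, how it was altered or whether mice of both lines were littermates. Both groups had received ovalbumin (OVA), the egg white allergen, and their lungs were collected on day 22, when exposure had ended 1 day earlier. The other 8 arrays, 4 of each line after phosphate-buffered saline (PBS), served as the control exposure. The labels give no age, sex or dose, and whether each replicate is its own animal is not stated. The p-values therefore measure only the variation among these arrays, part of which may be technical.

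Rag1 and Rag2 together form the recombinase that assembles the antigen receptor genes of T and B cells, and mice lacking either protein have no mature T or B cells but keep natural killer (NK) cells, macrophages, dendritic cells and granulocytes. In allergic airway disease, allergen-specific T helper type 2 cells release IL-4, IL-5 and IL-13. These cytokines act through STAT6 on airway epithelium, which then makes mucus, and on macrophages, which take on the alternatively activated state, and they recruit eosinophils. B cells supply IgE and, in the lung, IgA and IgM.

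Probe set labels in the deposited table were offset from their values in 3 runs and were realigned before genes were named. The first run of 4000 labels took values 64 rows above, and the third run, of 2800 labels, took values from a later stretch of the table. The second run of 7500 labels was read 47 rows below its label. In that run, pairs of probe sets of the same gene with both levels over log2 6 had a median correlation across the 16 arrays of 0.618 (637 pairs) when read 47 rows below, and of 0.0272 (440 pairs) when read 47 rows above. Over all 3 runs the median was 0.634 (1696 pairs) after realignment and 0.115 (856 pairs) as deposited. The labels do not describe this offset, and all gene names here depend on the realignment. It named 9866 genes, of which 7276 exceeded log2 4 on at least 4 arrays and were tested. Median intensity per array was 18.2 to 20.5, and 52.1 to 53.5% of values exceeded log2 4, which was taken as the background. With 4 arrays a group, precision is limited by that number.

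Lymphocyte transcripts were present on arrays whose BALB-RAG titles imply their absence. Rag2 was under log2 4 on all 8 OVA arrays (2.92, 3.11, 3.13 and 3.13 log2 units on BALB-RAG_OVA replicates 1 to 4, 2.87 to 3.23 on BALB/c_OVA) and checked nothing, and Rag1 had no placed probe set. Cd3d, a chain of the T cell receptor complex, read 2.50, 7.03, 2.32 and 2.38 on BALB-RAG_OVA replicates 1 to 4 and 8.45, 7.78, 6.88 and 7.42 on BALB/c_OVA. Igha, the IgA heavy chain, read 3.98, 10.97, 3.59 and 5.52 against 11.47, 10.83, 10.45 and 10.78. The library labelled BALB-RAG_OVA replicate 2 thus carried Cd3d and Igha within the BALB/c_OVA range, while Cd3d was below background on the other 3. On that array the T cell genes Bcl11b (6.33 against 5.56 to 6.99) and Cd8a (5.54 against 5.13 to 6.41) also lay within that range. Cd28 (4.15 against 5.07 to 5.69), Cd2 (6.44 against 6.90 to 7.61), Cd247 (5.56 against 5.82 to 6.76) and Ctla4 (3.49 against 4.54 to 5.83) lay below it. The 4 arrays labelled BALB-RAG_PBS carried Cd3d and Igha too. Cd3d was at 4.88 to 5.93 against 4.98 to 6.15 in BALB/c_PBS, and Igha at 8.45 to 10.79 against 6.66 to 7.86. The B cell genes Ms4a1 (4.36 to 6.17 against 6.87 to 7.48) and Ighm (7.25 to 8.75 against 8.95 to 10.15) lay below each BALB/c_PBS array. After PBS the list median of the line difference was −0.76 for B cells. It was 0.02 for T cells and for immunoglobulins and plasma cells. Groups were kept as titled, each direction is given for the arrays labelled BALB-RAG, and counts are repeated without replicate 2.

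**Figure D1:**
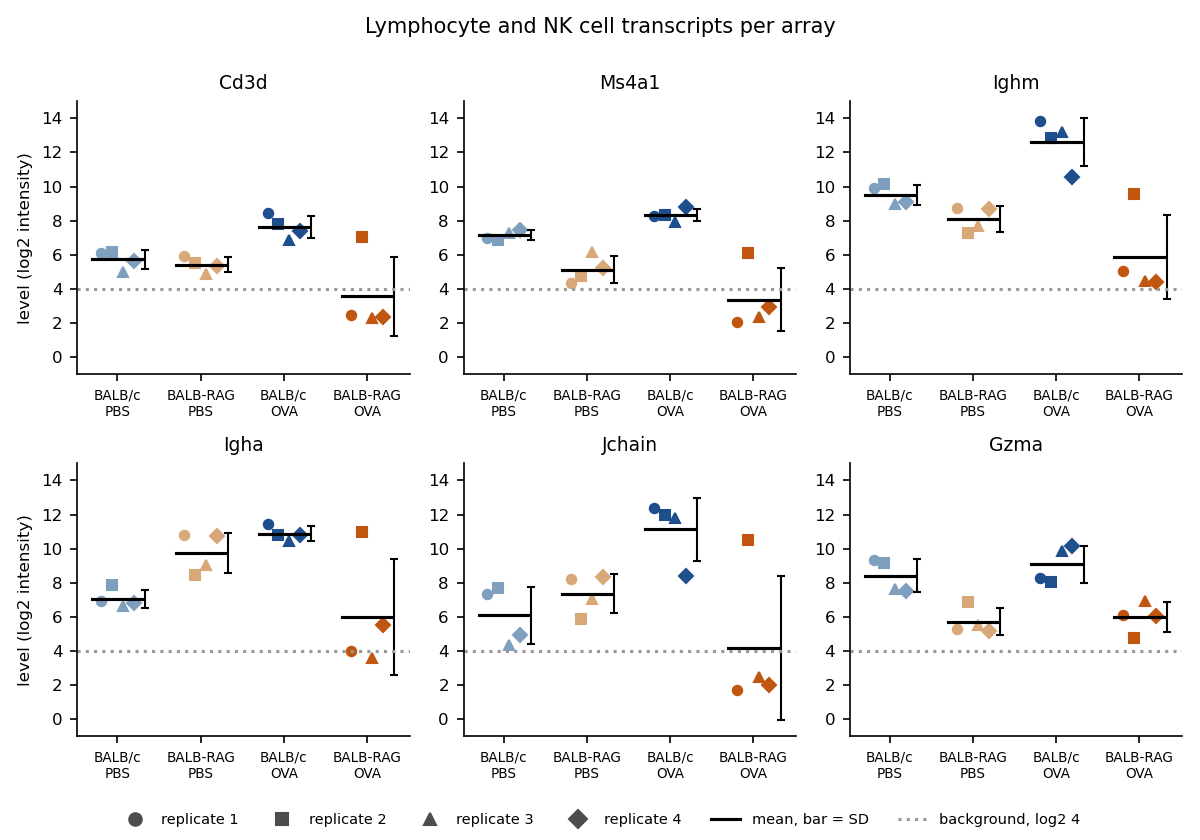
Levels (log2 intensity, vertical axis) of 6 lymphocyte and NK cell transcripts on each of the 16 arrays, by group; markers show the replicate number, horizontal lines the mean of 4 arrays, bars the SD and the dotted line the background of log2 4. BALB-RAG_OVA replicate 2 (square) lies apart from the other 3 arrays for Cd3d (7.03), Ms4a1 (6.10), Ighm (9.58), Igha (10.97) and Jchain (10.52), and not for Gzma (4.79).

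After ovalbumin 847 of 7276 tested genes were higher on the BALB-RAG arrays (11.6%) and 882 were lower (12.1%) at an adjusted p under 0.05 (limma, Benjamini-Hochberg over all tested genes, n = 4 per group). The median difference over all tested genes was 0.01 log2 units. The lower genes held more of the large differences: 480 were lower by at least 1 log2 unit and 45 by at least 3, against 292 and 24 among the higher genes. The arrays of the groups did not overlap for 729 of the 847 higher and 780 of the 882 lower genes. This was counted among called genes only, where a call itself favours groups that lie apart. The share over all tested genes was not counted. Without BALB-RAG_OVA replicate 2, 770 genes were higher (10.6%) and 798 lower (11%), and 1471 of the 1729 calls were kept. Replicates 1 and 2 alone gave 1994 calls and replicates 3 and 4 alone 693, with 566 in both. All 1729 genes had the same sign in both pairs, but their calls rest on these same arrays and themselves favour equal signs. The share of equal signs over all tested genes was not counted. The labels name no batch, but arrays with numbers 1 and 2 deviated from their group means together, as did arrays 3 and 4.

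**Figure D2:**
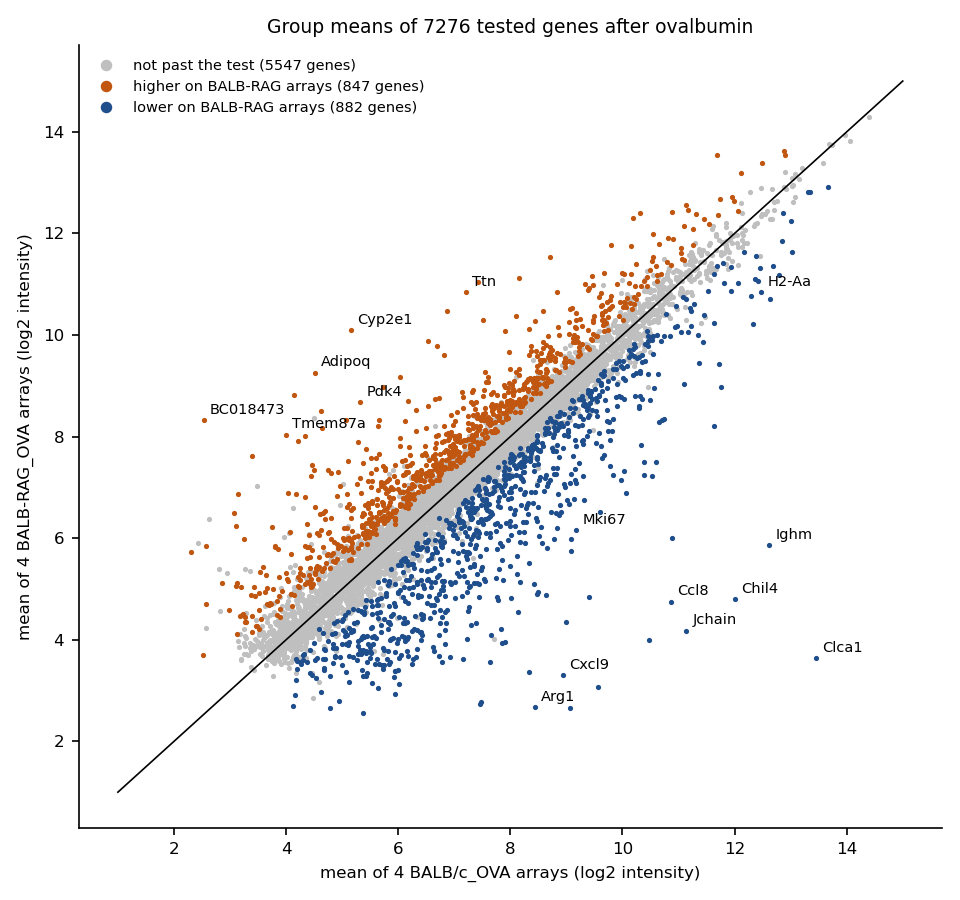
Mean log2 intensity of each of 7276 tested genes over the 4 BALB/c_OVA arrays (horizontal axis) and the 4 BALB-RAG_OVA arrays (vertical axis); the line marks equal levels and colours mark genes past the limma test. Clca1, Chil4, Jchain and Ighm lie farthest below the line, and BC018473, Cyp2e1 and Adipoq farthest above it.

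The 12 largest differences in each direction among genes whose groups did not overlap fell into a few kinds. Lower on the BALB-RAG arrays were the epithelial genes Clca1 and Slc26a4, the macrophage- and eosinophil-associated genes Chil4, Rnase2a and Arg1, the chemokines Ccl8 and Cxcl9, the B cell genes Ighm and Ms4a1, the macrophage receptor gene Slamf8, the collagenase gene Mmp13 and the transcript AA467197. Higher were the transcript BC018473, the cytochrome P450 gene Cyp2e1, the fat genes Adipoq and Thrsp, the muscle genes Myl3, Smpx, Txlnb, Myoz2, Ckm, Ttn and Myl4, and Tmem87a.

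Among T cell genes 13 of 15 tested members were lower and 0 higher, with a median difference of −1.84 (12.1% of all tested genes were lower). The counts were 9 within replicates 1 and 2, 10 within replicates 3 and 4, and 14 without BALB-RAG_OVA replicate 2. In bulk lung RNA, fewer cells of a type and less RNA per cell cannot be told apart. Cd28, the costimulatory receptor of naive T cells, read 2.86, 4.15, 3.40 and 2.96 on BALB-RAG_OVA against 5.69, 5.07, 5.45 and 5.54 on BALB/c_OVA, a difference of −2.09 ± 0.24 (SE, adjusted p = 1.66e-05). The groups did not overlap. Ctla4, an inhibitory receptor of activated and regulatory T cells, was under log2 4 on all 4 BALB-RAG_OVA arrays and at least 2.18-fold lower, where values under log2 4 count as log2 4. Cd2 (−1.88 ± 0.26) and Cd247, the zeta chain of the receptor complex (−1.84 ± 0.32), were lower as well. Cd3d differed by −4.07 ± 0.79 (adjusted p = 0.00132) with overlapping groups, and by −5.23 without BALB-RAG_OVA replicate 2 (adjusted p = 1.66e-07). Cd8a, the coreceptor of cytotoxic T cells, was lower by −0.68 ± 0.22 (adjusted p = 0.0313) and lost that call in 6 of the 8 fits that each left out 1 OVA array, those without BALB-RAG_OVA replicates 1, 3 and 4 and BALB/c_OVA replicates 1, 2 and 4. The members not called were Cd4 (−0.3 ± 0.22, adjusted p = 0.38) and Cd5 (−1.63 ± 0.57, adjusted p = 0.0516).

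Among B cell genes 13 of 16 were lower and 0 higher, with a median of −2.28 (12 within replicates 1 and 2, 11 within replicates 3 and 4). Ms4a1, which encodes CD20, read 2.05, 6.10, 2.38 and 2.94 against 8.28, 8.34, 7.90 and 8.82. Even replicate 2 lay below each BALB/c_OVA array, and the difference was −4.97 ± 0.65 (adjusted p = 5.51e-05). Pou2af1, a transcriptional coactivator of B cells (−4.63 ± 0.69), Cd79b, a chain of the B cell receptor (−3.58 ± 0.52), Cd83, an activation marker (−3.55 ± 0.41), and Cd72 (−3.05 ± 0.35) were lower without overlap. Cd22, an inhibitory B cell receptor (−2.26 ± 0.32), and Tnfrsf13c, the BAFF receptor (−2.65 ± 0.32), were lower too. Ebf1, a B cell transcription factor that stromal cells also express, was at 6.24 to 6.56 against 5.67 to 7.10 and was not called (0.20 ± 0.25, adjusted p = 0.634), and without BALB/c_OVA replicate 4 1 member of the list was higher.

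Antibody transcripts varied widely among the BALB-RAG_OVA arrays. Ighm, the IgM heavy chain, read 5.05, 9.58, 4.44 and 4.43 against 13.85, 12.85, 13.20 and 10.58, a difference of −6.75 ± 0.95 (adjusted p = 0.0001). Its groups did not overlap, with the closest values on BALB-RAG_OVA replicate 2 and BALB/c_OVA replicate 4. Jchain, which joins IgA and IgM into polymers, read 1.73, 10.52, 2.49 and 1.99 against 12.37, 11.99, 11.80 and 8.4. The groups overlapped, as BALB-RAG_OVA replicate 2 lay above BALB/c_OVA replicate 4, though below the other BALB/c_OVA arrays. The difference was −6.96 ± 1.58 (adjusted p = 0.00431), and −9.07 without replicate 2. Irf4, a transcription factor of plasma cells and activated lymphocytes, was under log2 4 on all 4 BALB-RAG_OVA arrays, replicate 2 included, and at least 4.72-fold lower. In all, 5 of 10 tested immunoglobulin and plasma cell genes were lower and 0 higher, with a median of −2.04; the fifth was the kinase gene Pim2 (−1.36 ± 0.37). The count was 8 without BALB/c_OVA replicate 4. Xbp1 and Sdc1, which epithelial cells also express, were not called (−0.44 ± 0.17, adjusted p = 0.0656, and −0.17 ± 0.17, adjusted p = 0.526). The antibody genes Igk (−3.7 ± 1.39, adjusted p = 0.0673) and Ighg3 (−0.77 ± 0.37, adjusted p = 0.149) were not called either. Nor was Prdm1 (−0.21 ± 0.15, adjusted p = 0.37).

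NK cell and cytotoxic granule genes were also lower: 8 of 10, 0 higher, with a median of −2.53, and 7 and 8 within the pairs of replicates. Gzma, a granule protease, read 6.13, 4.79, 6.95 and 6.05 against 8.31, 8.03, 9.86 and 10.14, a difference of −3.10 ± 0.59 (adjusted p = 0.00118). Replicate 2, the array with T cell transcripts, held the lowest value. Ctsw, a protease of cytotoxic cells (−2.63 ± 0.26), Ccl5 (−2.47 ± 0.51) and the receptor genes Klra7 (at least 2.61-fold), Klra8 (−2.25 ± 0.50) and Klrg1 (at least 3.99-fold) were lower. The members not called were Cd244a (−0.31 ± 0.24, adjusted p = 0.397) and Ncr1, an NK cell receptor gene (−0.43 ± 0.39, adjusted p = 0.491). After PBS Gzma differed by −2.69 (adjusted p = 0.0177), and the difference of the line differences was −0.42 (adjusted p = 0.857). Of the lymphoid follicle genes 6 of 9 were lower and 1 higher, with a median of −2.0. Ltb, which encodes lymphotoxin beta (−2.84 ± 0.49), Fcer2a, the low-affinity IgE receptor (−2.65 ± 0.35), Cxcr5, the homing receptor of follicular cells (−2.0 ± 0.28), and Tnfrsf13b (−1.86 ± 0.17) were lower. The gene that was higher was Glycam1 (2.73 ± 0.69), of the vessels through which lymphocytes enter lymph nodes.

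The type 2 cytokine genes themselves were mostly at background or not placed, and 13 of 26 list members were placed and 7 tested. Of these 4 were lower and 0 higher, with a median of −0.71 (4 within replicates 1 and 2, 3 within replicates 3 and 4, and 2 without BALB-RAG_OVA replicate 1). Il33, an epithelial alarmin that activates type 2 cells, read 8.79, 9.15, 8.36 and 8.61 against 10.57, 10.70, 10.26 and 10.47. The groups lay apart and differed by −1.78 ± 0.23 (adjusted p = 4.88e-05). Crlf2, the receptor chain for the alarmin TSLP, was lower by −1.57 ± 0.21. Socs3, a feedback inhibitor of cytokine signalling (−1.20 ± 0.33), and Il4ra, the receptor chain shared by IL-4 and IL-13 (−0.71 ± 0.20), lost the call without BALB-RAG_OVA replicate 1, and Il4ra also without BALB/c_OVA replicate 1.

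Of 21 chemokine genes 14 were lower and 1 higher, with a median of −1.41 (12 and 10 lower within the pairs of replicates). Ccl8, which attracts type 2 T cells through CCR8, read 5.01, 5.89, 3.99 and 4.13 against 11.33, 11.63, 10.33 and 10.15, a difference of −6.11 ± 0.41 (adjusted p = 8.8e-08). Cxcl9, which attracts CXCR3-bearing T and NK cells and is induced by interferon gamma, read 2.75, 5.21, 2.65 and 2.58 against 9.84, 9.11, 8.4 and 8.41 (−5.64 ± 0.47, adjusted p = 8.51e-07). Replicate 2 was the only BALB-RAG_OVA array with Cxcl9 above background. Cxcl10, a second ligand of that receptor, was lower by −2.93 ± 0.23 and Ccl17, a ligand of CCR4 on type 2 T cells, by −3.55 ± 0.42. The member that was higher, Ccl27a (0.97 ± 0.30), lost the call without BALB-RAG_OVA replicate 1 or 2 or BALB/c_OVA replicate 4. Among receptors 5 of 10 were lower and 0 higher, with a median of −1.0 (4 in each pair of replicates): Cxcr6 of tissue T and NK cells (at least 6.88-fold), Ccr2 of monocytes (−2.08 ± 0.38), Ccr7 (−2.02 ± 0.40), Cxcr5 and Ccr1 (−2.05 ± 0.66, adjusted p = 0.0326). Ccr1 lost the call without BALB-RAG_OVA replicate 2 (adjusted p = 0.106) or 4 or BALB/c_OVA replicate 1 or 2.

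Genes of mucus-making airway epithelium gave the largest difference. Clca1 (probe set 1416306_at), a protein secreted by goblet cells, read 2.81, 6.11, 2.78 and 2.86 on BALB-RAG_OVA against 13.29, 13.30, 13.52 and 13.70 on BALB/c_OVA. The difference was −9.81 ± 0.92 (adjusted p = 2.89e-06), and 3 of the 4 BALB-RAG_OVA arrays were under background with replicate 2 above it. After PBS Clca1 read 2.80 to 7.53 on BALB-RAG and 3.44 to 5.74 on BALB/c arrays, so these groups overlapped. Slc26a4, which encodes the anion exchanger pendrin, was under log2 4 on all 4 BALB-RAG_OVA arrays and at least 47.3-fold lower. Fcgbp, a mucus component, read 5.01, 5.01, 4.63 and 4.75 against 9.15, 9.88, 9.25 and 9.34 (−4.55 ± 0.17, adjusted p = 5.71e-11), and Tff2, a trefoil peptide of mucus, was lower by −3.61 ± 0.46. In all 12 of 14 tested members were lower and 0 higher, with a median of −2.05 (9 and 8 within the pairs of replicates). After PBS 0 members were called by limma (3 at an unadjusted p under 0.05) and the median was 0.07.

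The promoter of Slc26a4, the mucous member with the largest difference among those in the RefSeq promoter table, is shown so that its letters can be read beside that difference. Each window runs from 250 bases before to 50 after the gene start (GRCm38.p6), and capitals mark matches on either strand to 4 motifs: CCAAT; the cell cycle homology region, TTTGAA or TTCGAA; the STAT6 type, TTCNNNNGAA; and the interferon type, GAAANNGAAA. Matches may overlap, and a match is a description of the letters. The Slc26a4 window (chr12:31559935-31560234, minus strand) held 1 match, to the interferon type at −147.
Slc26a4: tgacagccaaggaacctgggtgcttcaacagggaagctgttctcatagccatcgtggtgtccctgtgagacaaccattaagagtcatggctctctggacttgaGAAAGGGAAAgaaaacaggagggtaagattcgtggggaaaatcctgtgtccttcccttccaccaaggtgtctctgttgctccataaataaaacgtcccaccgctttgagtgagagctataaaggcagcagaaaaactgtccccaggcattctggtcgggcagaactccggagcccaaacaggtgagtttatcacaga
Among promoters, of 8 mucous members called lower and held in the table, 0 held the STAT6 type, against 6.99% of all 27025 genes with a window.

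Alternatively activated macrophage genes were lower in 12 of 15 cases and higher in 0, with a median of −2.30 (12 within replicates 1 and 2, 8 within replicates 3 and 4). Chil4 (probe set 1425450_at), a chitinase-like protein of macrophages and airway epithelium in type 2 inflammation, read 4.53, 4.92, 5.11 and 4.65 against 11.83, 12.42, 11.56 and 12.19. The difference was −7.20 ± 0.25 (adjusted p = 4.93e-11), with a gap of over 6 log2 units between the groups, and both lines had a mean of 4.96 after PBS. Arg1, which breaks down arginine, read 2.92, 2.51, 2.34 and 2.94 against 9.14, 9.83, 7.96 and 6.83 and was at least 21.7-fold lower. Rnase2a, an eosinophil-associated ribonuclease that macrophages also make, differed by −6.49 ± 0.43, with replicate 2 (5.30) as the only BALB-RAG_OVA array above background. The Chil4 window (chr3:106219430-106219729, minus strand), shown because Chil4 differed most in this list, held 1 match, to the cell cycle homology region at −65.
Chil4: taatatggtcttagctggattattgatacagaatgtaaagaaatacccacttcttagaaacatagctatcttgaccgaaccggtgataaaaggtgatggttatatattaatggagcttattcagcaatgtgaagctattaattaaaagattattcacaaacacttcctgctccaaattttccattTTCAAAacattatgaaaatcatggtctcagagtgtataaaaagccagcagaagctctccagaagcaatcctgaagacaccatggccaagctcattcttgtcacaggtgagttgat
The STAT6 type occurred in 3 of 9 members of the list that were lower and in the table (33.3%), against 5.45% of tested genes and 6.99% of all windows. The cell cycle homology region occurred in 6 of the 9 (66.7%), against 13.7% and 19.4%.

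**Figure D3:**
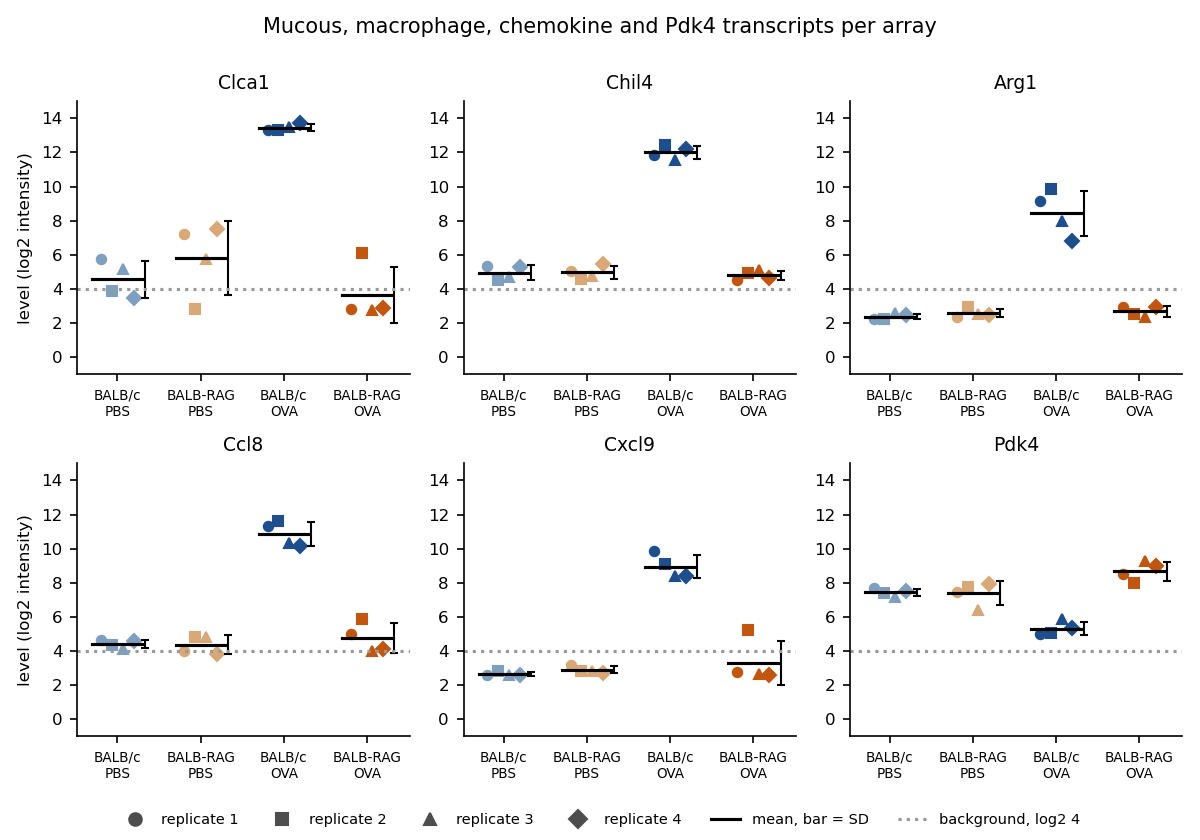
Levels (log2 intensity, vertical axis) of Clca1, Chil4, Arg1, Ccl8, Cxcl9 and Pdk4 on each of the 16 arrays, by group; markers show the replicate number, lines the mean of 4 arrays, bars the SD and the dotted line the background of log2 4. BALB/c_OVA stands above the other 3 groups for the first 5 genes (Clca1 at 13.29 to 13.70), and for Pdk4 it stands below them (5.02 to 5.86).

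Macrophage and monocyte genes were lower in 11 of 19 cases and higher in 2, with a median of −1.06 (12 lower and 4 higher within replicates 1 and 2, 8 and 0 within replicates 3 and 4). Itgax, which encodes CD11c of alveolar macrophages and dendritic cells, read 7.26, 6.86, 7.63 and 7.25 against 10.92, 10.93, 10.23 and 9.48 (−3.14 ± 0.30, adjusted p = 3.07e-06). The groups were separate, with BALB/c_OVA replicate 4 nearest. Fcgr2b, the inhibitory IgG receptor, was lower by −2.50 ± 0.29. The 2 members that were higher, Fabp4 (2.82 ± 0.61) and Car4 (1.05 ± 0.22), are also a fat gene and a gene of lung capillaries. Of the complement and acute phase genes 4 of 14 were lower and 0 higher, with a median of −0.50 (5 and 3 within the pairs): C3ar1, the receptor of complement fragment C3a (−3.91 ± 0.47), C1qb (−3.09 ± 0.38) and C1qa (−2.88 ± 0.38), which macrophages make, and the protease C1ra (−0.56 ± 0.12).

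Lysosome and phagocytosis genes were lower in 12 of 23 cases and higher in 0, with a median of −1.03 (16 within replicates 1 and 2, 3 within replicates 3 and 4). Ctsb and Ctsc, lysosomal proteases, differed by −1.27 ± 0.20 and −1.13 ± 0.17, Laptm5 by −1.73 ± 0.24 and Cybb, the catalytic part of the phagocyte oxidase, by −1.97 ± 0.36. Of 13 genes of arginine and polyamine metabolism 4 were lower, namely Arg1, the arginine carrier Slc7a2 (−1.20 ± 0.31), the antizyme inhibitor Azin1 (−0.86 ± 0.15) and the spermidine acetyltransferase Sat1 (−0.77 ± 0.13), with a list median of −0.37 (7 and 2 within the pairs). Without BALB/c_OVA replicate 1 that median was −0.24.

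Granulocyte genes gave few calls. Of 17 eosinophil genes 7 were placed and 5 tested, and 1 was lower, Adgre4, a receptor also found on macrophages (−1.95 ± 0.49, adjusted p = 0.00852). Siglecf, a surface receptor of eosinophils and alveolar macrophages, differed by −0.93 (adjusted p = 0.0576) and Il5ra, the IL-5 receptor chain, by −0.52 (adjusted p = 0.0771), and both were chosen after their values were seen. The list count was 2 lower without BALB/c_OVA replicate 3 or 4 or BALB-RAG_PBS replicate 3. Of 8 tested neutrophil genes 0 were called at the adjusted threshold by limma, and 2 higher and 0 lower at an unadjusted p under 0.05. S100a8, an abundant neutrophil gene chosen after its value was seen, differed by 1.33 (adjusted p = 0.367). Their median was 0.39, and 0.17 without BALB/c_OVA replicate 4. The mast cell list had 1 tested member, Kit (−0.20, adjusted p = 0.701).

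Dendritic cell and MHC class II genes were lower in 17 of 19 cases and higher in 0, with a median of −1.89 (16 and 14 within the pairs of replicates, 17 without BALB-RAG_OVA replicate 2). MHC class II molecules present antigen to T helper cells. H2-Aa, a chain of the class II molecule I-A, read 11.01, 11.12, 10.50 and 10.75 against 12.61, 12.54, 12.43 and 12.35 (−1.64 ± 0.17, adjusted p = 5.67e-06). The spread within each group was under 1 log2 unit and the groups did not overlap. Cd86, the ligand of CD28 on activated antigen-presenting cells, was lower by −2.17 ± 0.13 (adjusted p = 3.38e-08) and Irf8, a transcription factor of dendritic cells and monocytes, by −1.82 ± 0.21. Ccl17 read 4.42, 4.80, 3.57 and 3.62 against 7.37, 7.53, 7.48 and 8.24 and was lower after PBS too (−1.73, adjusted p = 0.0312). Its window (chr8:94810203-94810502, plus strand), shown because Ccl17 differed most among list members in the table, held a STAT6 type match at −154 and cell cycle homology letters at −227 and −96.
Ccl17: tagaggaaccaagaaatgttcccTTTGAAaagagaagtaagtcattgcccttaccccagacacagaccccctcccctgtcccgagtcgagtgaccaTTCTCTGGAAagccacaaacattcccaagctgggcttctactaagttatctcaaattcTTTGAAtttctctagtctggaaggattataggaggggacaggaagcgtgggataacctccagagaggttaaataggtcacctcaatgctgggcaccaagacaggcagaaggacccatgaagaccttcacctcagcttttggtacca

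Interferon response genes were lower in 24 of 30 cases and higher in 0, with a median of −1.77 (23 and 22 within the pairs of replicates). Iigp1, a GTPase that attacks the vacuoles of intracellular parasites, read 7.09, 6.89, 7.69 and 7.19 against 10.48, 10.23, 10.85 and 10.52 (−3.30 ± 0.22, adjusted p = 8.8e-08). No array of one group came within 2 log2 units of the other group. Tap1, which carries peptides to MHC class I, was lower by −2.66 ± 0.20 and Gbp2, a guanylate-binding protein, by −2.37 ± 0.18. After PBS 1 member was called, lower on BALB-RAG, and the list median was −0.45. The 2 members in the promoter table with the largest differences were Cxcl9 (chr5:92328030-92328329, minus strand) and Oas1a, an antiviral oligoadenylate synthetase (chr5:120907476-120907775, minus strand; difference −3.19). The Oas1a window held overlapping interferon type matches at −20 and −14, CCAAT at −67, STAT6 type letters at −182 and −27, and the cell cycle homology region at −98. The Cxcl9 window held CCAAT at −65 alone.
Cxcl9: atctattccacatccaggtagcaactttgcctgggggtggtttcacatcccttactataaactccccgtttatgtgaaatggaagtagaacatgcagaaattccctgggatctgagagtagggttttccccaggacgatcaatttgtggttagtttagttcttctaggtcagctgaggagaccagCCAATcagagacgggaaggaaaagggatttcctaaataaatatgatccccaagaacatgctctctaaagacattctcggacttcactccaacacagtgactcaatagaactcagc
Oas1a: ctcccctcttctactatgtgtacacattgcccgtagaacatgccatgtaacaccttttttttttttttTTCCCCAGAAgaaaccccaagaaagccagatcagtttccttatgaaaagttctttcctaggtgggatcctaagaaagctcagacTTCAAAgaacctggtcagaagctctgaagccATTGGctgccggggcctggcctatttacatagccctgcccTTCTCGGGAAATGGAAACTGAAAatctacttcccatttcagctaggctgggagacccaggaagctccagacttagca
The interferon type occurred in 12 of 19 members that were lower and in the table (63.2%), against 3.49% of all 27025 genes and 3.36% of the 5869 tested genes with a window.

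Cell cycle genes were lower in 41 of 53 cases and higher in 0, with a median of −1.48 (45 and 24 within the pairs of replicates). Mki67, the marker of dividing cells, read 6.08, 6.32, 5.59 and 6.65 against 9.07, 9.27, 8.84 and 9.52 (−3.01 ± 0.25, adjusted p = 8.51e-07). Ccna2, a cyclin of S phase and mitosis (−2.61 ± 0.24), Rrm2, which makes deoxynucleotides (−2.64 ± 0.29), and the kinetochore gene Spc25 (−2.41 ± 0.24) were lower without overlap. The line difference was the other way after PBS, where 7 members were higher on BALB-RAG and 0 lower, with a median of 0.51. Mki67 then read 7.19 to 8.32 on BALB-RAG against 6.41 to 6.93 on BALB/c arrays (1.22, adjusted p = 0.0123), and the difference of the line differences was −4.23 ± 0.35 (adjusted p = 5.54e-06). It was past the test in 40 of the 53 members. The mean level of the list was 5.03 to 5.24 on BALB-RAG_OVA, 6.04 to 6.99 on BALB/c_OVA, 5.72 to 5.92 on BALB-RAG_PBS and 4.99 to 5.34 on BALB/c_PBS. The BALB-RAG_OVA and BALB/c_PBS levels overlapped.

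The 2 cell cycle members in the promoter table with the largest differences were Birc5, an inhibitor of apoptosis that acts in mitosis (chr11:117848987-117849286, plus strand; −3.21), and Bub1, a spindle checkpoint kinase (chr2:127831810-127832109, minus strand; −3.02). The Bub1 window held CCAAT at −68 and −42 and the cell cycle homology region at 15, and the Birc5 window held 0 of the 4 motifs.
Birc5: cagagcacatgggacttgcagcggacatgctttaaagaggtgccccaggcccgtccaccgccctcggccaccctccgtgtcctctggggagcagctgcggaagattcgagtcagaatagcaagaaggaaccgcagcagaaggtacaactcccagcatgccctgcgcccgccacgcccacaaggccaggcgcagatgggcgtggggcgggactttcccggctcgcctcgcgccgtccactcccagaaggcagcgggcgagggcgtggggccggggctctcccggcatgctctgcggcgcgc
Bub1: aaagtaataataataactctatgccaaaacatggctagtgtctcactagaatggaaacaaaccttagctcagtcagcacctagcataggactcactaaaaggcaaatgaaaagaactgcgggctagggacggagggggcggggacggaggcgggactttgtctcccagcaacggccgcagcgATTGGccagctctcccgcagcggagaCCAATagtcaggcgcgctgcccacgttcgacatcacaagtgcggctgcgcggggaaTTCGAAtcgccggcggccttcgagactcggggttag
Over 39 members that were lower and in the table, CCAAT occurred in 28 (71.8%, against 38.6% of 5869 tested genes and 37.9% of all genes with a window) and the cell cycle homology region in 19 (48.7%, against 13.7% and 19.4%). The share of the cell cycle homology region was 66.7% among the lower alternatively activated macrophage genes.

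**Figure D4:**
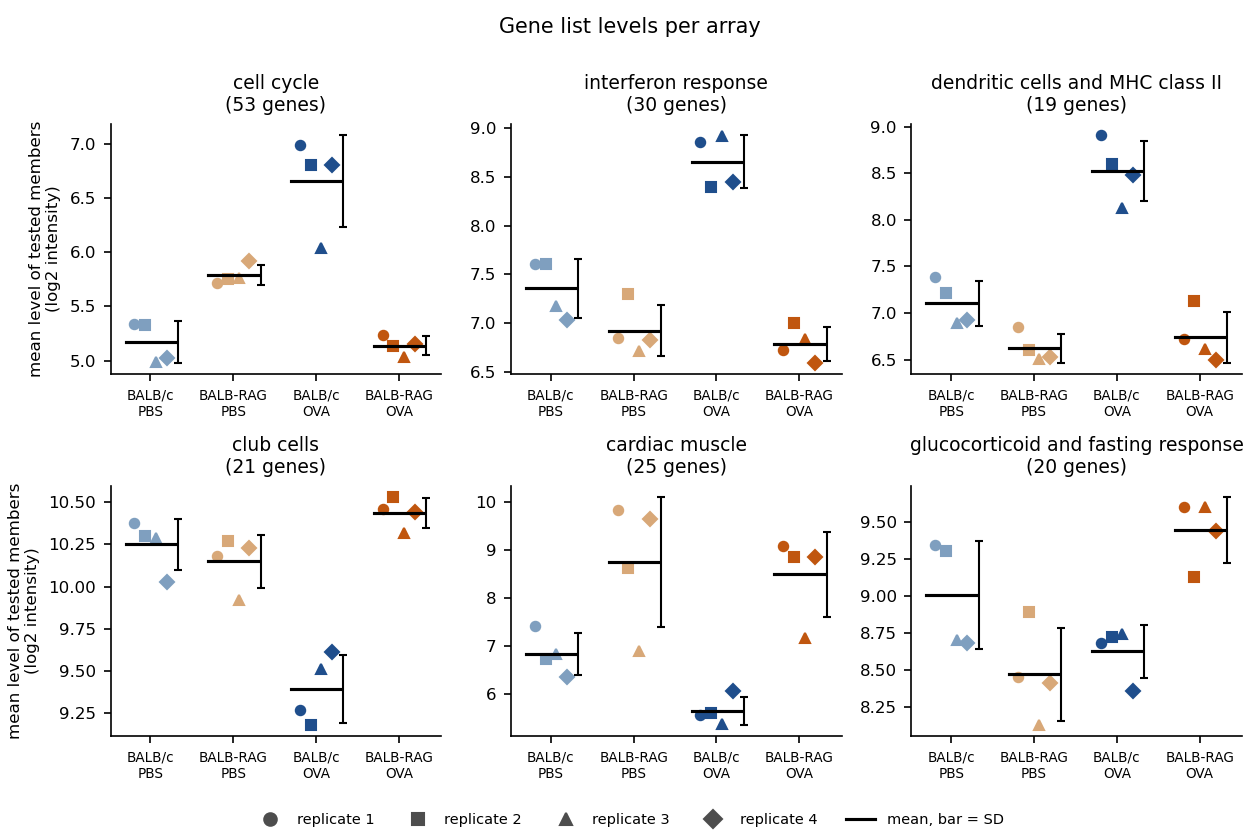
Mean log2 intensity of the tested members of 6 gene lists on each of the 16 arrays, by group; markers show the replicate number, lines the mean of 4 arrays and bars the SD, and the vertical axes differ and do not start at 0. Cell cycle levels were 5.03 to 5.24 on BALB-RAG_OVA and 6.04 to 6.99 on BALB/c_OVA arrays, and cardiac muscle levels were high on both BALB-RAG groups except on replicate 3 of each (6.90 and 7.18).

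Extracellular matrix genes moved in both directions, with 12 of 33 lower and 6 higher and a median of −0.26 (13 and 6 lower, 6 and 2 higher, within the pairs). The collagen genes Col5a2 (−1.41 ± 0.18) and Col1a2 (−1.47 ± 0.22) and Tgfbi (−1.52 ± 0.21) were lower. Ccn2, a matricellular growth factor, read 11.73 to 12.02 against 10.44 to 11.14 and was higher by 1.08 ± 0.18. After PBS 11 members were higher on BALB-RAG and 1 lower, Col1a2 among the former (1.16, adjusted p = 0.00938). Of 26 genes of the endoplasmic reticulum and secretory stress 10 were lower and 1 higher, with a median of −0.41 (10 and 7 lower within the pairs). Edem1, of the degradation of misfolded glycoproteins (−2.02 ± 0.35), Ero1b, an oxidase of secretory cells (−1.68 ± 0.17), and the folding enzymes Pdia6 (−0.93 ± 0.15) and Dnajb11 (−0.88 ± 0.14) were lower. The member that was higher, Herpud1 (0.46 ± 0.14), lost the call without BALB-RAG_OVA replicate 3 or 4 or BALB/c_OVA replicate 2 or 4.

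Club cell genes were higher on the BALB-RAG arrays in 12 of 21 cases and lower in 1, with a median of 0.89 (11.6% of all tested genes were higher; 15 and 8 within the pairs). Club cells line the small airways, secrete surface proteins and metabolise foreign compounds. Cyp2e1 (probe set 1415994_at) read 10.01, 10.36, 9.92 and 10.11 against 5.6, 5.95, 4.03 and 5.06 (4.94 ± 0.43, adjusted p = 1.38e-06). After PBS it read 8.08 to 9.42 on BALB-RAG and 7.02 to 8.95 on BALB/c arrays, and the difference of the line differences was 3.74 (adjusted p = 0.00122). Cyp2e1 is also made by fat cells, whose genes are given below. Scgb3a2, a secretoglobin, read 13.26, 13.16, 13.21 and 13.14 against 12.06, 11.87, 12.41 and 12.15, and was higher by 1.07 ± 0.12. The monooxygenase Fmo2 (2.09 ± 0.26) and the glutathione transferase Gstm1 (1.52 ± 0.16) were higher too. After PBS the club cell median was −0.02, with 0 members higher and 2 lower, and 13 members were higher by the test of the difference of the line differences. The member that was lower, Gsto1 (−0.76 ± 0.25), lost the call in 5 of the 8 fits without 1 OVA array, those without BALB-RAG_OVA replicate 3 or 4 or BALB/c_OVA replicate 1, 2 or 4.

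Of 16 ciliated cell genes 3 were higher and 0 lower, with a median of 0.22: Ift57 (0.49 ± 0.14), Tekt2 (0.81 ± 0.23) and Tppp3 (0.83 ± 0.25). Each lost the call with some single array left out, Ift57 without BALB-RAG_OVA replicate 3, Tekt2 without BALB/c_OVA replicate 1 and Tppp3 without replicate 1 or 2 of either group. The list count was 1 without BALB/c_OVA replicate 1. Of 22 alveolar epithelium genes 2 were higher and 4 lower, with a median of −0.07. Of all tested genes 11.6% were higher and 12.1% lower, so counts this small are near those shares. Rtkn2, a gene of type 1 cells, was higher by 1.28 ± 0.16 and Akap5 by 1.21 ± 0.31. Il33, which type 2 alveolar cells express, and Cxcl15, the lung chemokine lungkine (−0.52 ± 0.12), were lower, as were the surfactant protein gene Sftpd (−0.50 ± 0.16) and Napsa (−0.66 ± 0.23), a protease that processes surfactant. Sftpd lost the call without BALB-RAG_OVA replicate 1, 2 or 4 or BALB/c_OVA replicate 1 or 2, and Napsa without any of these or BALB-RAG_OVA replicate 3 or BALB-RAG_PBS replicate 2 or 4. The count of lower members was 2 without BALB-RAG_OVA replicate 1, 2 or 4 or BALB/c_OVA replicate 1 or 2.

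Endothelial genes were higher in 14 of 33 cases and lower in 2, with a median of 0.42 (14 and 7 higher within the pairs, and 9 without BALB/c_OVA replicate 2). Ednrb, an endothelin receptor (1.61 ± 0.31), Tbx2 (1.48 ± 0.20) and Clec14a, a vessel lectin (1.20 ± 0.20), were higher. Vcam1, the adhesion molecule through which lymphocytes and eosinophils enter tissue, read 6.85, 6.35, 6.64 and 6.65 against 7.82, 7.69, 7.91 and 7.82 and was lower by −1.19 ± 0.14, and after PBS by −0.68 (adjusted p = 0.0116). Selp, the adhesion molecule P-selectin, was the other lower member (−0.99 ± 0.29). With BALB-RAG_OVA replicate 4 or BALB/c_OVA replicate 4 left out, 1 member was lower. Smooth muscle and pericyte genes were higher in 11 of 17 cases and lower in 0, with a median of 0.80 (14 and 3 within the pairs, 7 without BALB-RAG_OVA replicate 1 and 6 without BALB/c_OVA replicate 1). Itga8 (1.83 ± 0.28), Notch3 (1.39 ± 0.26), the contractile gene Cnn1 (1.24 ± 0.23) and Pdgfrb, a pericyte receptor (0.92 ± 0.14), were examples. After PBS the smooth muscle median was 0.72, with 3 members higher on BALB-RAG and 0 lower. The difference of the line differences was past the limma test in 0 of 17 members (3 at an unadjusted p under 0.05).

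Transcripts of heart muscle and fat, tissues that adjoin the lung, were higher on the BALB-RAG arrays. Cardiac genes were higher in 21 of 25 cases and lower in 0, with a median of 2.96, in 23 within replicates 1 and 2 and in 2 within replicates 3 and 4. Ttn, the giant sarcomere protein, read 11.55, 10.89, 9.45 and 11.53 against 6.45, 6.93, 7.29 and 8.16 (3.65 ± 0.57, adjusted p = 0.000234). Myl4, the atrial myosin light chain, was higher by 3.63 ± 0.44 and Myl3, the ventricular light chain, at least 12.2-fold. The mean level of the cardiac list was 9.09, 8.86, 7.18 and 8.86 on BALB-RAG_OVA, 5.39 to 6.08 on BALB/c_OVA, 6.90 to 9.83 on BALB-RAG_PBS and 6.36 to 7.42 on BALB/c_PBS. Replicate 3 was the lowest in both BALB-RAG groups. After PBS 7 cardiac genes were higher on BALB-RAG and 0 lower, and in 0 of 25 members was the difference of the line differences past the limma test at the adjusted threshold (5 at an unadjusted p under 0.05).

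Fat genes were higher in 12 of 21 cases and lower in 0, with a median of 1.09 (16 and 4 within the pairs, 8 without BALB-RAG_OVA replicate 2). Adipoq, the fat hormone adiponectin, read 9.96, 9.76, 7.92 and 9.39 against 5.11, 5.46, 3.28 and 4.18 (4.75 ± 0.65, adjusted p = 8.03e-05). Thrsp, a lipogenic gene, was higher by 4.66 ± 0.61, the lipid droplet gene Plin4 by 2.48 ± 0.34 and Slc2a4, the insulin-responsive glucose carrier, by 1.44 ± 0.24. After PBS 10 fat genes were higher on BALB-RAG and 1 lower, with a median of 1.16. The fat list level was 7.45 to 8.43 on BALB-RAG_OVA, 6.44 to 6.66 on BALB/c_OVA, 7.23 to 8.92 on BALB-RAG_PBS and 6.68 to 7.42 on BALB/c_PBS. Skeletal muscle genes had a median of 2.06 but a list level of 7.83, 4.65, 4.24 and 7.66 on BALB-RAG_OVA replicates 1 to 4 against 4.04 to 4.30. Only 2 of 15 were higher, near the 11.6% of all tested genes: Ckm, which the heart shares, and Eno3 (2.52 ± 0.59). Without BALB-RAG_OVA replicate 1 or 4, which carried the skeletal transcripts, 1 was higher, with medians of 1.21 and 1.37. The part of heart, muscle and fat tissue in the other differences was not tested.

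Genes of the glucocorticoid and fasting response were higher in 11 of 20 cases and lower in 0, with a median of 0.90 (8 and 9 within the pairs; without BALB/c_OVA replicate 4, 10 higher and 1 lower). Pdk4, which switches tissues from glucose to fat oxidation, read 8.49, 7.97, 9.27 and 8.97 against 5.02, 5.05, 5.86 and 5.35 (3.35 ± 0.32, adjusted p = 3.79e-06). The groups were over 2 log2 units apart, and both lines had like means after PBS (7.40 and 7.44). Sult1a1, a sulfotransferase (2.17 ± 0.22), Tsc22d3, the glucocorticoid-induced leucine zipper (1.59 ± 0.22), and Klf9, a transcription factor induced by glucocorticoids (1.45 ± 0.26), were higher. After PBS 6 members of the list were lower on BALB-RAG and 0 higher, Tsc22d3 by −0.84 (adjusted p = 0.0487), and 10 were higher by the test of the difference of the line differences. Clock genes were higher in 9 of 19 cases and lower in 3, with a median of 0.63 (10 and 5 higher, 3 and 1 lower, within the pairs). Hlf (2.48 ± 0.25), Usp2 (2.47 ± 0.32) and Per2 (1.63 ± 0.22), a clock output factor, a clock-driven protease and a core repressor, were higher, and the 3 lower members were Bhlhe40, a repressor also induced in activated lymphocytes (−1.49 ± 0.21), Nfil3 (−1.46 ± 0.35) and Arntl, which encodes BMAL1 (−1.04 ± 0.35). Arntl lost the call without replicate 2 of any of the 4 groups, replicate 4 of either PBS group, BALB-RAG_OVA replicate 3 or BALB/c_OVA replicate 1. Hlf was higher after PBS too (1.98, adjusted p = 0.000353). The labels give no hour of collection, and its part was not tested.

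Immediate early genes were called in both directions, with 3 of 21 higher and 5 lower (11.6% and 12.1% of all tested genes) and a median of −0.37. The counts were 0 higher and 6 lower within replicates 1 and 2, and 2 and 4 within replicates 3 and 4. Rgs1, a regulator of chemokine receptor signalling in lymphocytes and macrophages, read 4.24, 4.09, 3.65 and 3.83 against 8.90, 8.78, 7.75 and 6.22 (−3.96 ± 0.49, adjusted p = 3.65e-05). Egr2 (−2.82 ± 0.34), Ier5 (−0.72 ± 0.13), Junb (−0.91 ± 0.31) and Socs3 were lower. Errfi1, a feedback inhibitor of the EGF receptor (1.22 ± 0.29), Klf6 (0.58 ± 0.19) and Jun (0.44 ± 0.14) were higher. Jun and Klf6 each lost the call without BALB-RAG_OVA replicate 1 or 3 or BALB/c_OVA replicate 3, and Klf6 also without replicate 4 of either OVA group. Junb lost it without BALB-RAG_OVA replicate 2, 3 or 4, BALB/c_OVA replicate 1 or 2 or BALB/c_PBS replicate 2. After PBS 9 members were lower on BALB-RAG and 0 higher, with a median of −1.07, and Errfi1 was then lower by −1.48 (adjusted p = 0.0109). The count of higher members was 1 without BALB-RAG_OVA replicate 1 or 3 or BALB/c_OVA replicate 3, and the median was −0.15 without BALB-RAG_OVA replicate 2, −0.19 without BALB/c_OVA replicate 1, −0.21 without BALB/c_OVA replicate 3, −0.23 without BALB/c_OVA replicate 2 and −0.25 without BALB-RAG_OVA replicate 3. Of 6 erythroid and platelet genes and 3 sex-linked genes tested, 0 were called by limma at the adjusted threshold, and 1 and 0 at an unadjusted p under 0.05. Without BALB-RAG_OVA replicate 1, BALB/c_OVA replicate 4 or BALB-RAG_PBS replicate 3, 1 erythroid or platelet gene was lower.

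**Figure D5:**
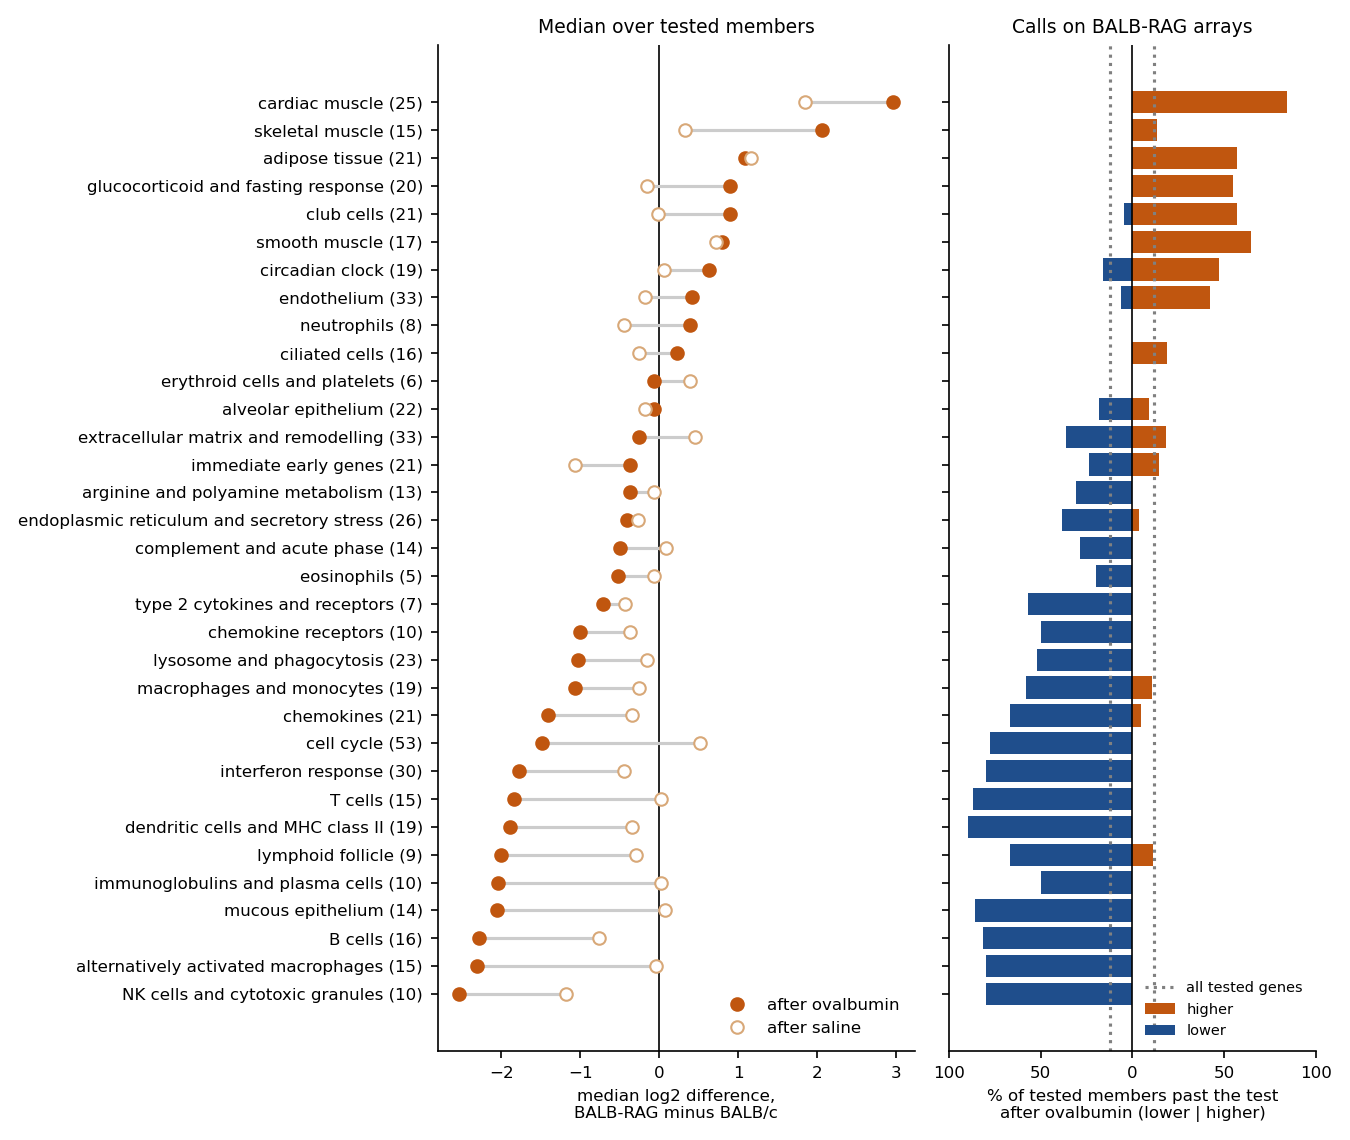
Left, median log2 difference (BALB-RAG minus BALB/c) over the tested members of each gene list with at least 5, after ovalbumin (filled) and after saline (open), with the number tested in parentheses; right, percent of members past the limma test after ovalbumin, lower to the left and higher to the right, with dotted lines at the 12.1% and 11.6% of all tested genes. The T cell (−1.84), B cell (−2.28), mucous (−2.05), interferon (−1.77) and cell cycle (−1.48) medians lie below 0 after ovalbumin and the cardiac (2.96) and fat (1.09) medians above, with the fat median near its value after saline (1.16).

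After PBS the lines differed in 284 genes (3.9% of those tested), and in 609 with the replicate number as a block (replicate block). Of the 1729 genes called after ovalbumin 174 were also called after PBS (10.1% of the former and 61.3% of the latter), 147 in the same direction and 27 in the opposite one. The difference of the line differences was past the test in 618 genes (8.49%), in 1152 with the replicate block, and 549 of these were among the 1729 (31.8%). BC018473 (probe set 1427451_a_at), a transcript named without an assigned function, read 8.80, 8.49, 7.31 and 8.66 against 2.38, 2.3, 2.67 and 2.79 after ovalbumin and was at least 19.9-fold higher. After PBS it read 5.73 to 7.37 on BALB-RAG and 2.18 to 2.42 on BALB/c arrays (4.39, adjusted p = 2.47e-06). Tmem87a, a membrane protein of the secretory route, read 7.90, 8.29, 8.03 and 7.96 against 3.92, 3.41, 3.95 and 4.68. Its difference was 4.05 ± 0.24 after ovalbumin and 4.04 after PBS (adjusted p = 3.38e-08 and 2.24e-07), and the 8 arrays labelled BALB-RAG lay above the 8 labelled BALB/c for both genes. AA467197, a transcript that hosts the microRNA miR-147, was under background on all 4 BALB-RAG_OVA arrays and at least 33.4-fold lower, Mmp13, a collagenase, at least 11.1-fold and Slamf8, a receptor of macrophages, at least 11-fold. These 3 were not called between the lines after PBS (adjusted p = 0.534, 0.868 and 0.86).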

How the data were processed

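Whole lung RNA of 16 arrays was measured on Affymetrix arrays. Values were made with GCRMA, per the submitters' processing notes, with no version stated there, and the authors deposited them as linear intensity. Titles gave groups and replicate numbers. The members and lists were chosen with earlier results of these data known. Labels in 3 runs were realigned (14300 of 45101 rows, 13146 with 1 symbol), the second run 47 rows below its label, opposite to the direction given with the sample selection, because same-gene probe sets then correlated better. Other labels were dropped. Log2 was taken, each gene took the probe set with the highest mean, and genes over log2 4 on at least 4 arrays entered a limma fit (3.58.1, R 4.3.3) of 4 group means on 16 arrays, 12 residual degrees of freedom, empirical Bayes, Benjamini-Hochberg at 0.05. For named genes with several probe sets, these differed in sign for Sdc1. All 6 Ighm probe sets had the same sign but only 2 were called lower, and 1 of 2 for Myl3 was called higher. Simulated shifts were used to test the fit. Named were Rag genes with a placed probe set, the 12 largest non-overlapping differences each way, up to 4 called members of each list by smallest p, the 4 most abundant members of the lymphocyte lists, and all members of counts of 5 or fewer, each direction of a list included. Same-numbered arrays of the OVA groups deviated from their group means together (correlations of 0.25, 0.12, 0.32 and 0.28). Between all groups, arrays of the same number (median correlation 0.277) did so about as much as other arrays of the same pair of replicates (0.298). The labels state no pairing, so the replicate block is given only as an alternative. Promoter windows came from RefSeq (GRCm38.p6), and 1 further motif searched is not reported here. Alternatives covered filters, normalization, weights, probe set choice, blocks and each array left out.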

Additional observations from a re-analysis of the deposited data

Results flagged for a closer look

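The line difference after ovalbumin differed from that after PBS, by the interaction term of the limma fit, in 74 of the 147 named genes tested. Over all tested genes it did so in 618 of 7276 (8.49%). Most named genes were chosen by their difference or p-value after ovalbumin. That difference is part of the interaction term, so the choice itself favours a high share. Each value is the difference after ovalbumin minus that after PBS, in log2 units. It was below 0 in lymphocyte and NK cell genes: Cd28 (−2.37), Ctla4 (−1.98), Cd2 (−1.37), Cd247 (−1.75), Cd3d (−3.77), Bcl11b (−2.56), Cd72 (−1.98), Cd83 (−2.05), Tnfrsf13b (−1.67), Fcer2a (−2.13), Irf4 (−2.60), Ighm (−5.33), Jchain (−8.24), Igha (−7.55), Ctsw (−1.48) and Klrg1 (−2.29). It was also below 0 in mucous epithelial genes: Clca1 (−11.08), Slc26a4 (−5.46), Fcgbp (−4.70) and Tff2 (−2.51). It was also below 0 in macrophage, complement, lysosomal and secretory genes: Chil4 (−7.20), Rnase2a (−6.63), Arg1 (−5.97), Slamf8 (−4.47), Mmp13 (−4.30), AA467197 (−5.83), Itgax (−2.27), Fcgr2b (−1.62), C1qb (−3.20), C1qa (−2.49), C3ar1 (−4.47), Laptm5 (−1.24), Ctsb (−1.33) and Edem1 (−1.94). It was also below 0 in cytokine, chemokine and receptor genes: Il33 (−1.30), Crlf2 (−1.05), Ccl8 (−6.07), Cxcl9 (−5.87), Cxcl10 (−2.76), Cxcr6 (−2.64), Ccr2 (−1.82) and Rgs1 (−3.30). It was also below 0 in antigen presentation and interferon response genes: Cd86 (−1.95), H2-Aa (−1.10), Irf8 (−1.61), Iigp1 (−3.10), Tap1 (−2.11) and Gbp2 (−1.92). It was also below 0 in cell cycle and matrix genes and the clock gene Bhlhe40: Mki67 (−4.23), Ccna2 (−3.64), Spc25 (−3.47), Rrm2 (−4.07), Col5a2 (−1.82), Tgfbi (−1.15), Col1a2 (−2.63) and Bhlhe40 (−1.44). It was above 0 in epithelial, endothelial and matrix genes: Cyp2e1 (3.74), Gstm1 (1.58), Scgb3a2 (0.94), Fmo2 (2.11), Tekt2 (1.20), Rtkn2 (1.48), Clec14a (1.05), Ednrb (1.56) and Ccn2 (1.40). It was also above 0 in glucocorticoid, fasting, clock and immediate early genes: Pdk4 (3.40), Sult1a1 (2.21), Tsc22d3 (2.43), Usp2 (1.97), Per2 (1.39), Errfi1 (2.70), Jun (0.99) and Klf6 (0.94). It was also above 0 in the secretory stress gene Herpud1 (0.86).

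In 18 of 294 groups of 4 arrays 1 array stood apart from the other 3 by Dixon's 95% limit, which chance passes in about 1 of 20 groups, and 12 of the 18 were BALB-RAG_OVA groups. Replicate 2 was the array apart in 10 of these. It was the highest for Clca1 (6.11 against 2.78 to 2.86), Ighm (9.58 against 4.43 to 5.05), Cxcl9 (5.21 against 2.58 to 2.75), Cd3d (7.03 against 2.32 to 2.50), Cd79b (7.04 against 3.86 to 4.40), Jchain (10.52 against 1.73 to 2.49), Gstm1 (11.25 against 10.80 to 10.85) and Bhlhe40 (8.56 against 8.26 to 8.27). It was the lowest for Egr2 (5.21 against 5.58 to 5.64) and Slc7a2 (4.39 against 5.33 to 5.46). Myl3 was lowest on BALB/c_OVA replicate 3, at 2.78 against 3.54 to 3.68. Jchain was lowest on BALB/c_OVA replicate 4, at 8.4 against 11.80 to 12.37. Socs3 was lowest on BALB-RAG_OVA replicate 1, at 5.53 against 6.5 to 6.64. Rrm2 was lowest on BALB/c_OVA replicate 3, at 7.94 against 9.08 to 9.23. Tekt2 was lowest on BALB-RAG_OVA replicate 4, at 4.59 against 4.96 to 5.02. Hlf was highest on BALB/c_OVA replicate 2, at 5.03 against 4.05 to 4.14. Laptm5 was highest on BALB/c_OVA replicate 2, at 9.75 against 8.99 to 9.09. Cybb was lowest on BALB/c_OVA replicate 4, at 8.18 against 9.16 to 9.33.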

How the results depend on the processing

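Against 1729 genes called after ovalbumin (847 higher, 882 lower), the count was 4836 (2556, 2280) over all rows of the table, gene names unused, 2904 (1447, 1457) with array weights, 693 (289, 404) within replicates 3 and 4, 1016 (520, 496) without the second run of labels, 1061 (467 higher) at an adjusted p under 0.01 and 772 (292, 480) at 1 log2 unit or more. Leaving out 1 array gave 1332 to 1799 (614 to 902 higher, 703 to 906 lower). The replicate block, which uses the replicate numbers, gave 2453, kept 1726 of the 1729 and cost no named gene its call. Against 284 genes after PBS the count was 781 over all rows, 518 with array weights, 635 with the replicate pair as a batch term, 627 with that term and without BALB-RAG_OVA replicate 2, 609 with the replicate block, 52 within replicates 3 and 4, 170 without the second run, 84 at 0.01 and 147 at 1 log2 unit. Leaving out 1 array gave 174 to 397, with 174 without BALB-RAG_PBS replicate 1 and 184 and 185 without BALB/c_PBS replicates 1 and 2. Against 618 genes in the difference of the line differences it was 1460, 1129, 1214, 1103, 1152, 212, 402 and 256 under those settings up to 0.01, and 414 to 687 with 1 array left out. The stricter thresholds lower counts by construction, and without the second run fewer genes were tested. Fewer arrays did not always lower the count, as replicates 1 and 2 alone gave 1994 calls after ovalbumin. For the settings with fewer arrays and for the others the cause was not tested. Of 143 called named genes 91 kept their call under all 32 settings run on them and 125 in every fit without 1 array; 42 lost it within replicates 3 and 4, and 0 reversed. With the second run read 47 rows above, 24 of 130 named genes tested reversed and 35 lost their call. The without-second-run, 47-rows-above and combined batch settings were chosen after seeing the data. Levels near log2 4 are limited by background.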
